A study of Rattus norvegicus with 6 samples.

Results

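Markers of tubular injury and the 3 fibrinogen chains were measured in whole rat kidney, as 10 genes: Havcr1, Lcn2, Spp1, Clu, Gdf15, Vcam1, Sox9, Fga, Fgb and Fgg. They were chosen by gene name and found on the array through the RefSeq accession of each probe. Of the 10, 9 had a probe, 1 each, among 15168 genes named on the array. No probe matched Sox9, which was not analysed here. Of the 9, 8 passed the filter on dim probes and were tested. Fgg did not pass and is given by its values alone. The samples were 3 kidneys of rats labelled Bailing Capsule-treated and 3 kidneys of rats labelled diabetic, all 21 weeks old. Bailing Capsule is a preparation of fermented Cordyceps mycelium. The labels give no dose, strain, sex or means of inducing diabetes, do not say whether the Bailing Capsule rats were diabetic, and do not say whether each sample was 1 animal. A p-value here therefore reflects only the variation among these 6 samples, which may be technical.

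Injured tubule cells lose mature transport functions and switch on genes that are low in a healthy tubule, and the products of several of these genes are used as urine or plasma markers of kidney damage. Havcr1 (KIM-1) is a receptor for dead cells on injured proximal tubules, Lcn2 (NGAL) an iron-carrier binding protein of the distal nephron and of neutrophils, Clu (clusterin) a secreted chaperone, Spp1 (osteopontin) an integrin-binding phosphoprotein, Gdf15 a stress-induced cytokine and Vcam1 an adhesion molecule for leukocytes. Fibrinogen, the precursor of fibrin clots, is built from the chains encoded by Fga, Fgb and Fgg. Its main source is the liver, and in rodents its chains are also transcribed in the injured kidney.

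Levels are given as the log2 processed signal minus the 75th percentile of the same array, so that 0 stands for that percentile, and differences as Bailing Capsule minus diabetic. A level was not compared between genes, since probes differ in brightness. Groups were compared with limma across 17892 features (10633 named genes and 7259 unnamed probes), and a feature was called at a Benjamini-Hochberg adjusted p under 0.05. Of these features 0.319% were called, 0.190% lower and 0.129% higher in Bailing Capsule kidneys. The median difference over all features was -0.09, and 0.09 with slide as a block. The arrays lay on 2 slides. All 3 Bailing Capsule arrays shared slide 1 with a single diabetic array, replicate 1, while the other 2 diabetic arrays were on slide 2. A comparison within 1 slide thus rests on 1 diabetic array. The share of probes well above background ran from 64.55% to 73.46%. In RNA from a whole kidney, fewer cells of a type and less RNA per cell cannot be told apart.

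Of the 8 tested genes, Clu was lower by the test in Bailing Capsule kidneys, and no other was called. Clu, Spp1, Gdf15, Lcn2, Fga and Fgb had lower values on every Bailing Capsule array than on any diabetic array, whereas Havcr1, Vcam1 and the untested Fgg overlapped between the groups. Groups did not overlap, with Bailing Capsule lower, for 7.06% of all features. Lcn2 passed the filter through its diabetic arrays and Havcr1 through its Bailing Capsule arrays. Among the 6 genes well above background on all 6 arrays, 5 had groups that did not overlap, all lower in Bailing Capsule kidneys, against 6.72% of the 16096 features of that kind. The earlier results of these data were known when the genes were picked, so these counts describe the genes and are not a test of them.

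**Figure D1:**
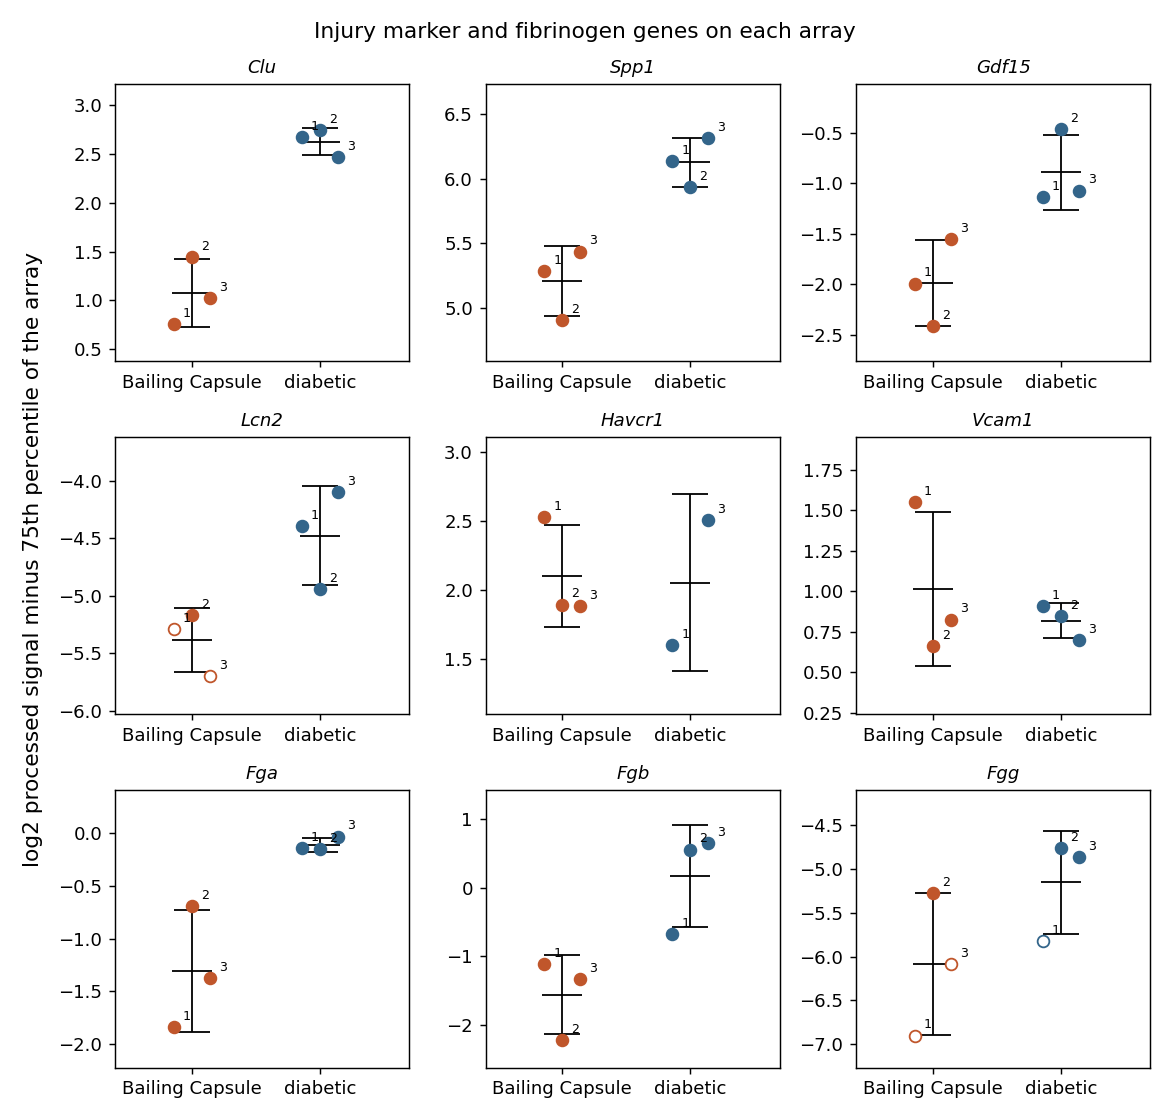
Level of each of the 9 genes on each array, as log2 processed signal minus the 75th percentile of the array; numbers are replicates, bars the mean and SD, and open circles arrays where the probe was not well above background. Havcr1 has no value for diabetic replicate 2. The groups stand apart for Clu, Spp1, Gdf15, Lcn2, Fga and Fgb and overlap for Havcr1, Vcam1 and Fgg.

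Clu, which encodes a chaperone that binds misfolded protein outside the cell, had levels of 0.76, 1.44 and 1.02 in Bailing Capsule replicates 1, 2 and 3, against 2.67, 2.74 and 2.47 in diabetic replicates 1, 2 and 3. The highest Bailing Capsule array lay 1.03 log2 units below the lowest diabetic array. Clu averaged 1.07 ± 0.35 in Bailing Capsule kidneys and 2.63 ± 0.14 in diabetic kidneys (SD, n = 3 each). It fell by 1.55 on the log2 scale (SE 0.27, limma adjusted p = 0.0493), a 2.93-fold lower signal with a 95% interval of 1.95 to 4.42-fold. The adjusted p lay just inside the threshold. It was 0.0517 when each unnamed probe was counted as a feature of its own, 0.0597 when spots marked as outliers were kept and 0.215 with slide as a block, where the difference was -1.59. The call also ended without Bailing Capsule replicate 2 (0.0536) or 3 (0.222) and without diabetic replicate 2 (0.229) or 3 (0.175).

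The Clu probe was printed 10 times on each array, which gives the measurement error within an array. After outlier spots were left out, 7 to 10 spots remained, with an SD of 0.03 to 0.16 log2 units among them. The brightest single Clu spot on any Bailing Capsule array had 1.50 and the dimmest on any diabetic array 2.36, so the spots of the groups did not overlap either. Differences among the Bailing Capsule arrays were larger than the spot error: the spots of replicate 1 ran from 0.48 to 0.93 and those of replicate 2 from 1.41 to 1.50.

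Spp1, the gene of osteopontin, had levels of 5.28, 4.90 and 5.43 in Bailing Capsule replicates 1, 2 and 3, against 6.14, 5.94 and 6.32 in diabetic replicates 1, 2 and 3. Every Bailing Capsule array was lower than every diabetic array, with a gap of 0.50. The difference was -0.92 (SE 0.26, 95% interval -1.50 to -0.35) and did not pass (limma adjusted p = 0.275). Its probe was also printed 10 times. The SD among spots was 0.05 to 0.15, and the highest Bailing Capsule spot had 5.57 against 5.61 for the lowest diabetic spot.

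**Figure D2:**
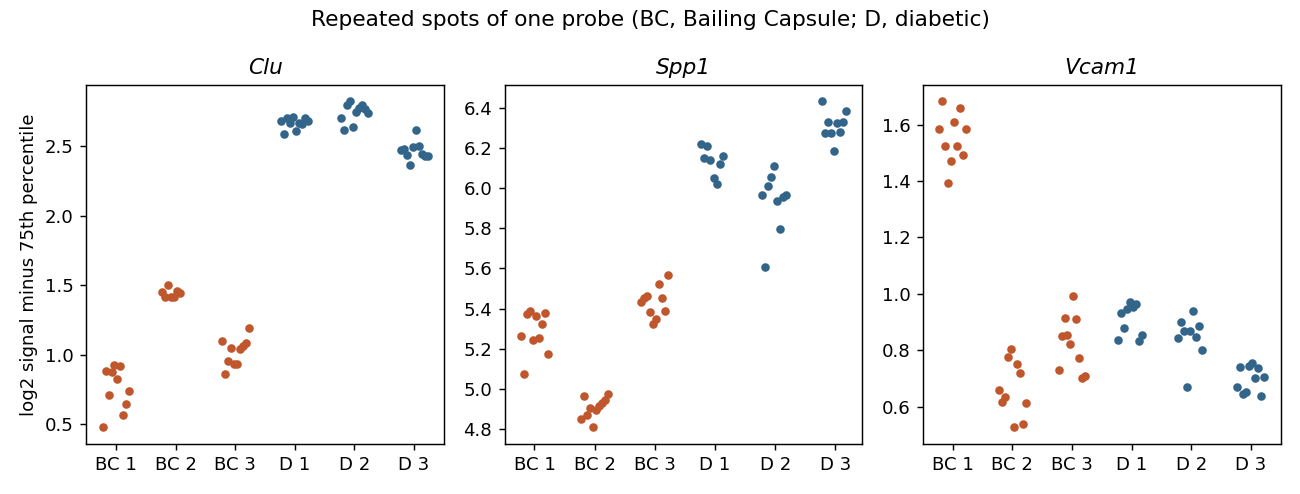
Signal of each repeated spot of the Clu, Spp1 and Vcam1 probes (log2, minus the 75th percentile of the array) by array, without outlier spots; BC is Bailing Capsule and D is diabetic. The spots of Clu and of Spp1 do not overlap between the groups, and the Vcam1 spots of Bailing Capsule replicate 1 lie above those of the other 5 arrays.

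Gdf15, a cytokine of the TGF-beta family that rises with cell stress and acts on the brainstem receptor GFRAL, had levels of -1.99, -2.41 and -1.55 in Bailing Capsule replicates 1, 2 and 3, against -1.14, -0.46 and -1.07 in diabetic replicates 1, 2 and 3. The groups did not overlap, and diabetic replicate 2 was the highest array. The difference was -1.09 (SE 0.31, 95% interval -1.78 to -0.41) and was not called (limma adjusted p = 0.275). With slide as a block the interval, -1.80 to 0.11, included 0. The probe of its receptor gene Gfral was not well above background on any array.

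Lcn2 was dim. Its levels were -5.29, -5.17 and -5.70 in Bailing Capsule replicates 1, 2 and 3, against -4.39, -4.94 and -4.10 in diabetic replicates 1, 2 and 3. The probe was well above background on 1 of 3 Bailing Capsule arrays (replicate 2) and on 3 of 3 diabetic arrays, with processed signals of 4.55 to 10.4 and 7.24 to 22.5 intensity units. The groups did not overlap on the scaled values, and the difference of -0.91 (SE 0.29) was not called (limma adjusted p = 0.363). It was -0.11 after normexp background correction with quantile normalization, a setting that changes the background correction, the signal column and the scaling together.

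Neutrophils are a second source of Lcn2, and their calprotectin genes were measured beside it. S100a8 had -5.40, -5.14 and -4.41 in Bailing Capsule replicates 1, 2 and 3, against -3.88, -2.73 and -2.98 in diabetic replicates 1, 2 and 3. S100a9 had -5.29, -5.36 and -4.65, against -4.17, -3.41 and -3.35 in the same order. Both were lower on all Bailing Capsule arrays than on any diabetic array, both were measured well above background in 2 of 3 Bailing Capsule kidneys, and neither was called (differences of -1.78 and -1.46, limma adjusted p = 0.110 and 0.129). Of 11 neutrophil markers with a probe, 4 were tested, S100a8 (-1.78), S100a9 (-1.46), Fcnb (-0.61) and Csf3r (0.11), and 5, the granule and protease genes Camp, Ngp, Ltf, Mmp8 and Mmp9, were not well above background on any array. The array medians of the 4 tested markers, relative to the diabetic mean, were -1.11, -1.29 and -0.71 for Bailing Capsule replicates 1 to 3, against -0.60, 0.33 and 0.25 for diabetic replicates 1 to 3. S100a8 and S100a9 passed the filter only through the diabetic arrays, where they are high, so these medians are a description only. With slide as a block S100a8 had -1.10 and Fcnb 0.17. The part of neutrophils in the Lcn2 values was not tested.

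Havcr1, the proximal tubule injury receptor, had levels of 2.53, 1.89 and 1.88 in Bailing Capsule replicates 1, 2 and 3, against 1.60 and 2.51 in diabetic replicates 1 and 3. The spot of diabetic replicate 2 was marked as an outlier and left out, so the fit used 2 diabetic arrays. The groups overlapped, and the difference was 0.05 (SE 0.37, 95% interval -0.78 to 0.88, limma adjusted p = 0.995). The excluded spot had 2.67, and with outlier spots kept the difference was -0.10. The interval runs from -0.78, a 1.72-fold lower signal, to 0.88, a higher signal in Bailing Capsule kidneys. These arrays therefore do not show that Havcr1 was equal in the groups.

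Vcam1, a ligand for leukocyte integrins made by endothelium and by injured proximal tubule cells, had levels of 1.55, 0.66 and 0.83 in Bailing Capsule replicates 1, 2 and 3, against 0.91, 0.85 and 0.70 in diabetic replicates 1, 2 and 3. Replicate 1 of the Bailing Capsule group stood apart, and the other 5 arrays lay between 0.66 and 0.91. All 10 Vcam1 spots of that array, from 1.39 to 1.68, were above every spot of the other arrays, of which the highest had 0.99. The group difference was 0.20 (SE 0.29, 95% interval -0.45 to 0.84, limma adjusted p = 0.972), and -0.073 without that array. The urothelial plaque gene Upk2 was also highest in Bailing Capsule replicate 1, at -0.58, against -3.90 and -4.59 in Bailing Capsule replicates 2 and 3 and -4.27, -4.45 and -3.47 in diabetic replicates 1, 2 and 3. Upk1b had -0.61 there, against -2.74 and -3.34 in the other Bailing Capsule arrays and -3.91 to -3.50 in diabetic kidneys. The urothelial keratin gene Krt5 did not stand out there, and ran from -3.19 to -2.999 over the 3 Bailing Capsule arrays, against -2.68 to -2.50 in diabetic kidneys. Of 8 urothelial markers with a probe 6 were tested, with 4 positive, 2 negative and 0 called. Relative to the diabetic mean, the median of these 6 was 0.95 in Bailing Capsule replicate 1, and -0.07 and -0.28 in replicates 2 and 3, against -0.27, 0.15 and 0.20 in diabetic replicates 1, 2 and 3. The part of urothelium in the Vcam1 value was not tested. Endothelial markers, of which 10 were tested and 0 called, had a median of -0.03, and 0.29 with slide as a block.

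**Figure D3:**
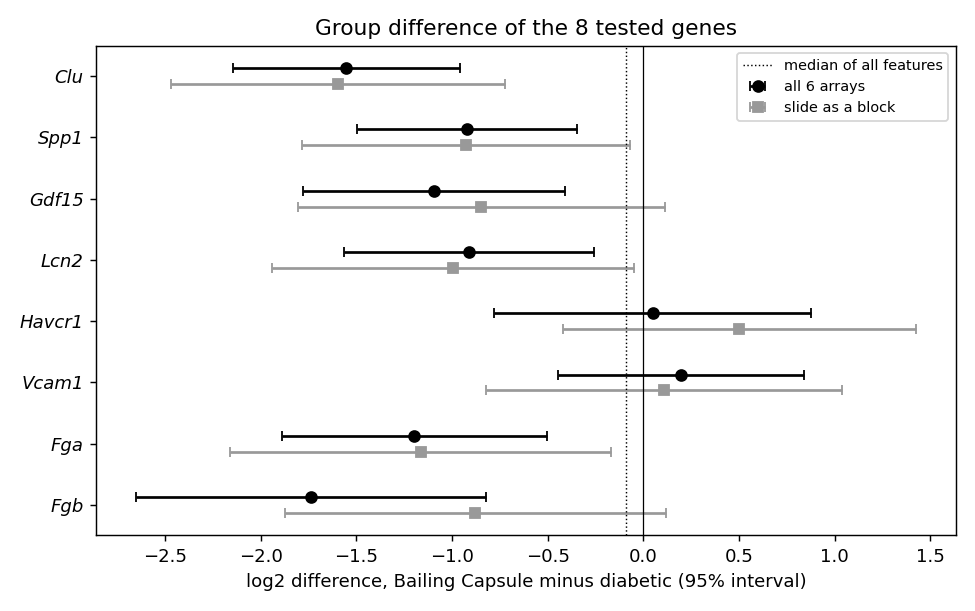
Group difference of each tested gene, Bailing Capsule minus diabetic on the log2 scale, with its 95% interval, from all 6 arrays (black circles) and with slide as a block (grey squares). Intervals from all arrays exclude 0 for Clu, Spp1, Gdf15, Lcn2, Fga and Fgb before adjustment for the number of features; the blocked value of Fgb is -0.88 in place of -1.74.

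Fibrinogen alpha and beta chain genes were both lower on all Bailing Capsule arrays. Fga had levels of -1.84, -0.69 and -1.38 in Bailing Capsule replicates 1, 2 and 3, against -0.14, -0.15 and -0.03 in diabetic replicates 1, 2 and 3. The groups did not overlap. Its diabetic arrays had an SD of 0.07 and its Bailing Capsule arrays one of 0.58. The difference was -1.20 (SE 0.31, 95% interval -1.89 to -0.50) and was not called (limma adjusted p = 0.224). With slide as a block it was -1.16.

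Fgb had levels of -1.12, -2.22 and -1.34 in Bailing Capsule replicates 1, 2 and 3, against -0.68, 0.56 and 0.66 in diabetic replicates 1, 2 and 3. Diabetic replicate 1, the diabetic array on slide 1, was 1.29 below the mean of the other 2 diabetic arrays and 0.44 above the highest Bailing Capsule array. The difference of -1.74 (SE 0.41, 95% interval -2.65 to -0.82) was the largest in size of the 8 and was not called (limma adjusted p = 0.171). It was -0.88 with slide as a block, and without diabetic replicate 1 it was -2.17 and passed (adjusted p = 0.0199). The arrays that were lowest differed between the chains: Fgb was lowest in Bailing Capsule replicate 2, where Fga was the highest of its group.

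Fgg was near background. Its levels were -6.90, -5.27 and -6.08 in Bailing Capsule replicates 1, 2 and 3, against -5.82, -4.76 and -4.87 in diabetic replicates 1, 2 and 3. It was well above background on 1 of 3 Bailing Capsule arrays and on 2 of 3 diabetic arrays, with processed signals of 1.87 to 9.70 and 4.83 to 13.2 intensity units, and the groups overlapped. The gamma chain is needed for secreted fibrinogen, and its probe gave no tested value here. With no filter on dim probes its difference was -0.94 (limma adjusted p = 0.936).

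The 3 chains are neighbours on rat chromosome 2, in the order Fgg, Fga, Fgb. Next to Fgg lies Lrat, which esterifies retinol, and next to Fgb lies Plrg1, a splicing factor gene. Lrat had a difference of -0.27 and Plrg1 of -0.07, neither called (limma adjusted p = 0.968 and 0.987). Plrg1 levels were 0.22, 0.62 and 0.48 in Bailing Capsule replicates 1, 2 and 3, against 0.33, 0.65 and 0.55 in diabetic replicates 1, 2 and 3, so the groups overlapped at this neighbour.

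In liver, fibrinogen genes respond to interleukin-6 through STAT3 and C/EBP factors. The 250 bases before the start of each chain, which show how far the promoters share these letters, are given from the RefSeq promoter table of build GRCr8, 5' to 3' on the gene's strand: Fga at chr2:170671919-170672168 (plus strand), Fgb at chr2:170700876-170701125 (minus strand) and Fgg at chr2:170652833-170653082 (plus strand). Capitals mark the STAT letters TTCNNNGAA, where N is any base, on either strand.
Fga: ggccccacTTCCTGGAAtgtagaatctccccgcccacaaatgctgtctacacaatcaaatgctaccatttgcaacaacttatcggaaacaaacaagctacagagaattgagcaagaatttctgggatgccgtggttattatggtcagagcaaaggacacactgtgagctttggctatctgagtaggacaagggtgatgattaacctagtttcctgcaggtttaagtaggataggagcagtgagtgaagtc
Fgb: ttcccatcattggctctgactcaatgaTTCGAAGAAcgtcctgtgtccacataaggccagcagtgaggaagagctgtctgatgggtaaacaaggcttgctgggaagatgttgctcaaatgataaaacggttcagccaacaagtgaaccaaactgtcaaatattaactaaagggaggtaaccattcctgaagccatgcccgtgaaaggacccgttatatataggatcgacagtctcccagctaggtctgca
Fgg: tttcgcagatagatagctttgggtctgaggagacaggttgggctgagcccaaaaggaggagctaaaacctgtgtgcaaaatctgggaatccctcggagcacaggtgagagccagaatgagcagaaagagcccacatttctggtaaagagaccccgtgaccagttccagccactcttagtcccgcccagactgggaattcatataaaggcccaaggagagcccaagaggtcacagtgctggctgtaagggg

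The STAT letters occurred once in the Fga window, 233 bases before the start, and once in the Fgb window, 214 bases before it, and did not occur in the Fgg window. Of all 33469 promoter windows of this length 7.67% hold them on either strand. The C/EBP letters TTNNGNAA were found once for Fga, 2 times for Fgb and not for Fgg, where 37.2% of windows hold them. Fga has a further listed start downstream, whose window lacks the STAT letters. Of the injury genes, 5 have windows in the table, and none of the 5 (Havcr1, Lcn2, Spp1, Gdf15 and Vcam1) holds the STAT letters. The C/EBP letters were found 3 times for Havcr1, once for Lcn2 and not for Spp1, Gdf15 or Vcam1. Windows of Havcr1 and Spp1 hold the HNF1 letters, as do those of Fga and Fgb, where 6.45% of all windows hold them. Those of Lcn2, Vcam1 and Gdf15 hold the NF-kB letters, as does that of Fgg, where 42.3% of all windows hold them. These are matches of letters and no measurement of binding. Clu and Sox9 were not among the windows used.

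Liver fibrinogen takes part in the acute phase response, and other genes of it were measured. Of 29 genes of the acute phase and interleukin-6 signalling, 20 were tested and 0 were called, with 14 negative and 6 positive and a median of -0.39, or -0.16 with slide as a block. The lowest p-values were those of the haem carrier gene Hpx (-0.999), the endotoxin-binding protein gene Lbp (-0.85) and the protease inhibitor gene A2m (-1.25), with limma adjusted p-values of 0.494, 0.583 and 0.609. With slide as a block Hpx had -0.23 and A2m -2.47. Hpx was well above background on 2 of 3 Bailing Capsule arrays and passed the filter only through the diabetic arrays. The counts and median of this list are therefore a description only. The other tested genes of acute phase proteins, Serpina3n (-0.79), Cp (-0.52), Saa4 (-0.42) and Agt (-0.18), had negative values too, while the kinase genes Jak1 (0.29) and Jak2 (0.26) and the receptor subunit gene Il6st (0.01) had positive ones. These 7 were named after their values were seen, and none was called. Groups did not overlap for 5 of the 20, all lower in Bailing Capsule kidneys, against 7.06% of all features. Besides Lbp these included Cebpb (-0.64) and Cebpd (-0.40), which encode C/EBP factors, and Socs3 (-0.60), an inhibitor of interleukin-6 signalling, named here after their values were seen. Groups overlapped for Stat3 (-0.09) and for the receptor gene Il6r (0.07), also named after their values were seen. Il6 itself, the C/EBP factor gene Cebpa, Crp, Orm1 and the fibrinogen-like gene Fgl1 were not well above background on any array.

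Genes that form and dissolve fibrin did not move as 1 group. Of 33 listed, 19 were tested, with 11 negative, 8 positive and 0 called, and a median of -0.12, or -0.03 with slide as a block. F2, which encodes prothrombin, the precursor of the protease that cuts fibrinogen, had levels of 3.31, 1.86 and 2.48 in Bailing Capsule replicates 1, 2 and 3, against 4.32, 4.71 and 4.60 in diabetic replicates 1, 2 and 3. The groups did not overlap, and its difference of -1.99 (SE 0.36) lay just outside the threshold (limma adjusted p = 0.0593). With slide as a block the difference of F2 was -1.77 (limma adjusted p = 0.348). F3, tissue factor, had -0.85 (adjusted p = 0.419) and Proc, the anticoagulant protein C, 0.89 (0.514). The plasminogen activator gene Plau, named after its values were seen, had -0.08.

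Fga and Fgb are abundant in hepatocytes, and other hepatocyte genes were measured beside them. Of 23 hepatocyte markers with a probe, 14 were tested, with 11 negative and 3 positive, 0 called and a median of -0.61. Groups did not overlap for 6 of the 14 with Bailing Capsule lower, against 7.06% of all features. They did not overlap for 1, Cyp2c11, with Bailing Capsule higher, against 4.58% of all features. Of the 6, Itih1, named after its values were seen, was well above background on 5 arrays and so passed the filter through 1 group only. Relative to the diabetic mean, this list had array medians of -0.45, -0.60 and -0.62 for Bailing Capsule replicates 1 to 3, against -0.22, 0.17 and 0.03 for diabetic replicates 1 to 3. Its median was -0.40 with slide as a block. Apoa1, Ahsg, Cps1, Tat, Hal and Vtn, all abundant in liver, were not well above background on any array. Alb, named after its values were seen, had -1.37 (limma adjusted p = 0.304). Apoc3 had -0.92, while the male-predominant liver cytochrome gene Cyp2c11 had 1.93 (limma adjusted p = 0.289 and 0.163). Cyp2c11 passed with slide as a block (2.91, adjusted p = 0.0405). F2 is in this list too. The part of this list in the fibrinogen values was not tested.

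A wider list of 40 genes that respond to tubular injury was also measured. Of 35 tested, 23 were negative and 12 positive, with a median of -0.16, and 1 was called. With slide as a block the median of the list was 0.07. The called gene was Plin2, which coats lipid droplets. It had 1.81, 2.35 and 1.73 in Bailing Capsule replicates 1, 2 and 3, against 3.72, 3.62 and 3.58 in diabetic replicates 1, 2 and 3. Its call (-1.68, limma adjusted p = 0.0319) ended with slide as a block (adjusted p = 0.131).

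Some genes of the wider list had higher values in Bailing Capsule kidneys. The list was not sorted by whether a gene rises or falls with injury, so a sign alone does not give the sense of a change. Tff3, a trefoil peptide of mucosal repair used as a urine marker, had 4.92, 4.56 and 4.91 in Bailing Capsule replicates 1, 2 and 3, against 3.26, 4.16 and 3.25 in diabetic replicates 1, 2 and 3. Krt7, a keratin of collecting duct and urothelium, had 1.29, 1.65 and 1.55, against 0.40, 1.01 and 0.58 in the same order. For both genes all Bailing Capsule arrays were above all diabetic arrays, as for 4.58% of all features, and neither was called (differences of 1.24 and 0.83, limma adjusted p = 0.196 and 0.347). The other genes of the list included Krt8 (-0.28), Cd44 (-0.16), Vim (0.29), Timp1 (-0.23) and Cdkn1a (-0.03), given as examples chosen after their values were seen, and all with overlapping groups.

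Partners of the measured proteins were tested as a further list. Of 22 receptors and partners 12 were tested, 9 negative and 3 positive, with 0 called and a median of -0.19, or -0.01 with slide as a block. The fatty acid and thrombospondin receptor gene Cd36 had -1.10, Itgb2, a subunit of the leukocyte integrins that bind fibrinogen, -0.86 and the myeloid receptor gene Trem2 -0.92 (limma adjusted p = 0.224, 0.253 and 0.504). In each of these 3 the groups did not overlap, with Bailing Capsule lower, against 7.06% of all features. Itgb2 levels were 0.24, 0.05 and 0.11 in Bailing Capsule replicates 1, 2 and 3, against 0.96, 1.03 and 0.98 in diabetic replicates 1, 2 and 3. Macrophages express Spp1, Trem2 and Itgb2. Of their markers 11 were tested, with 3 negative, 8 positive and 0 called, a median of 0.19 (blocked by slide, 0.36) and array medians of 0.35, 0.55 and 0.07 for Bailing Capsule replicates 1 to 3, against -0.12, -0.20 and 0.13 for diabetic replicates 1 to 3. The part of macrophages in the Spp1 values was not tested. Gpnmb, a gene of lipid-laden macrophages, had -1.02 and the complement gene C1qc 0.98 (limma adjusted p = 0.363 and 0.497).

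**Figure D4:**
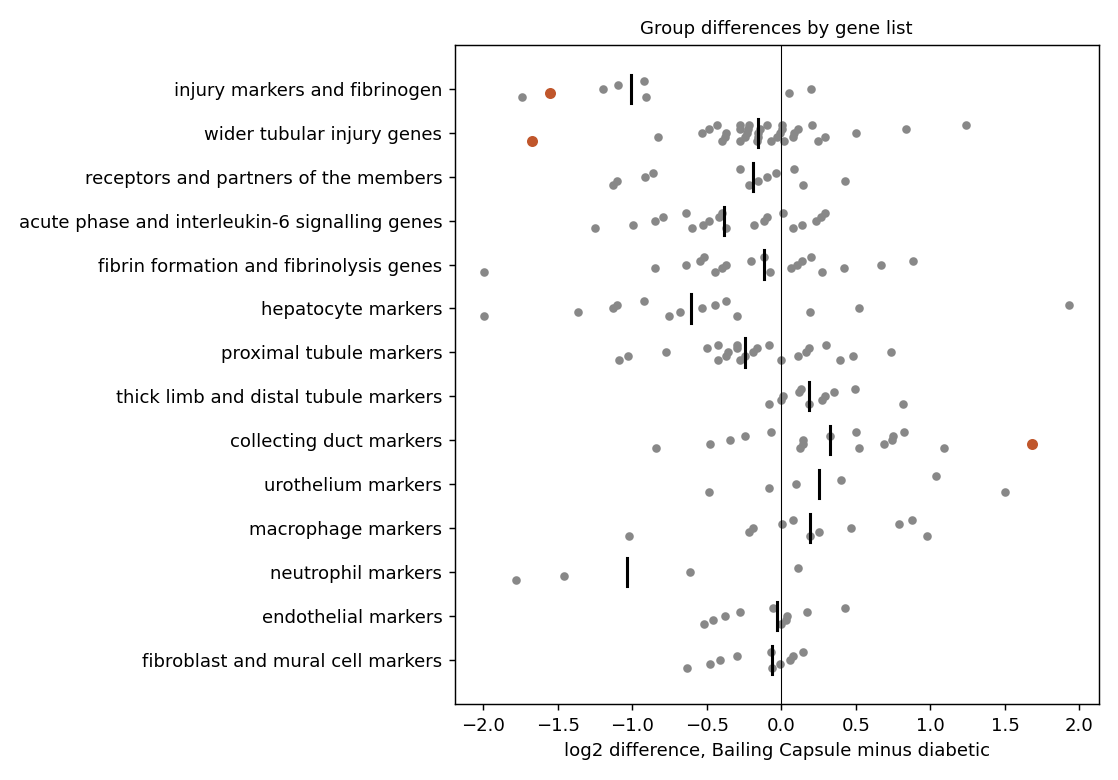
Difference of each tested gene, Bailing Capsule minus diabetic on the log2 scale, for the injury markers and fibrinogen chains and for each other list; black lines are medians and large coloured points are called genes (Clu, Plin2 and Slc26a4). The 8 injury and fibrinogen genes have a median of -1.01 and the wider injury list one of -0.16. The genes were picked with earlier results known, so the medians are a description only.

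Relative to the diabetic mean, the median of the 8 tested genes was -0.97, -0.94 and -0.96 on the Bailing Capsule arrays and -0.01, 0.03 and 0.13 on the diabetic arrays. For the 6 injury markers alone these medians were -0.83, -0.94 and -0.68 against 0.02, 0.03 and 0.03, and for Fga and Fgb -1.52, -1.49 and -1.39 against -0.45, 0.17 and 0.28. The median differences were -0.92 for the injury markers and -1.47 for the 2 fibrinogen chains, before any block for slide. The genes were picked with earlier results known, and Lcn2 passed the filter only through its diabetic arrays. These medians are therefore a description only. With slide as a block the differences were -1.59 for Clu, -0.93 for Spp1, -0.85 for Gdf15, -0.99 for Lcn2, 0.50 for Havcr1, 0.11 for Vcam1, -1.16 for Fga and -0.88 for Fgb. The intervals of Gdf15, Havcr1, Vcam1 and Fgb then included 0, and none of the 8 was called, where 0.218% of all features were.

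The profiles of Clu and Fgb over the 6 arrays were compared with those of 10401 other named genes, each centred on its own mean, by the root mean square difference in log2 units. Closest to Clu were Plin2 (0.14), the pantetheinase gene Vnn1 (0.20) and the acyl-CoA binding domain gene Acbd7 (0.21), where the median over genes was 0.83. Fga ranked 5 for Clu (0.25), while Gdf15, Spp1 and Lcn2 ranked 173, 184 and 188. Closest to Fgb were the endothelial proteoglycan gene Esm1 (0.26), the bile acid conjugation gene Baat (0.32) and the lactate transporter gene Slc16a1 (0.34), where the median was 0.99, and Fga ranked 1872 (0.83). Esm1 had 1.05, 0.26 and 0.74 in Bailing Capsule replicates 1, 2 and 3, against 1.82, 2.65 and 2.39 in diabetic replicates 1, 2 and 3, with diabetic replicate 1 the lowest of its group, as for Fgb. The genes nearest to Clu and Fgb were picked by this likeness, so their own group differences are not further evidence.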

How the data were processed

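Total RNA of kidney tissue from 6 samples was labelled with Cy3 and hybridised to 1-colour Agilent rat arrays, per the labels. Scanning used a G2505C instrument and Agilent Feature Extraction 11.0.1.1, per the file headers. The deposited scanner files give spot intensity, background-subtracted and detrended within each array and unscaled across arrays. The deposited table of log2 values is on a log2 scale with equal column medians (5.05). How it was made is not given in the sources used here. It served as an alternative.

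Spots marked as feature outliers (597 to 1091 per array) were left out, spots of a probe were averaged on the log2 scale, and each array's 75th percentile was subtracted. At least 50% of a probe's spots had to be well above background for the probe to count so on that array, and a probe was kept if all 3 arrays of either group met this. The brightest kept probe stood for a gene or, for unnamed probes, for an accession. RefSeq accessions, without versions, named 18005 of 30367 probes through a GRCr8 table. The comparison used limma 3.58.1 (R 4.3.3) and was tested on simulated data. The files hold a median spot signal, on which normexp ran (offset 50). The number of arrays limits the precision. Slides were told apart by scan time and array position in the headers.

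The members, lists and named genes (all members, the called genes and up to 3 more by p of each list, and the 3 profiles most like Clu and Fgb) were chosen with earlier results of these data known. Exceptions are marked. A further gene of the acute phase list is counted and not reported here. Alternatives covered background correction, scaling, filter, probe choice, variance model, blocks and leaving out each array. Same-numbered samples of the groups correlated at -0.18, -0.14 and 0.02 after group means were removed, which gave no pairing. The Benjamini-Hochberg adjustment ran over all features.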

Additional observations from a re-analysis of the deposited data

How the results depend on the processing

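limma called 57 features (23 higher and 34 lower) and, in the deposited table, 45 (25 higher and 20 lower). Calls numbered 15 under normexp with quantile scaling, 6 without a filter, 6 under the replicate block, 9 on slide 1 alone, and between 17 and 195 on leaving out single arrays (141 without Bailing Capsule replicate 1 and 195 without diabetic replicate 1). The number of called injury and fibrinogen genes was 1 (Clu). It was 0 with normexp, quantile normalization, the deposited table, no filter, the mean of a gene's probes, unnamed probes counted singly, outlier spots kept, the replicate block, slide as a block and on slide 1 alone. Leaving out single arrays gave 0 to 2. The 2 without diabetic replicate 1 were Clu and Fgb. Keeping outlier spots and counting unnamed probes singly were chosen after seeing the data. Clu had negative values under all 19 alternatives (-1.74 to -1.33) and passed in 5, with adjusted p-values of 0.0101 to 0.572. The median of the tested genes was -1.01, and -0.76 with normexp, -1.15 with a filter on all 6 arrays, where Lcn2 and Havcr1 were not tested, -0.90 with slide as a block and on slide 1 alone. It was -1.10 to -0.95 on leaving out single arrays. Havcr1 changed sign with the deposited table (-0.021), with outlier spots kept (-0.10), without Bailing Capsule replicate 1 (-0.17) and without diabetic replicate 1 (-0.41). Leaving out single arrays gave Havcr1 values of -0.41 to 0.50 and Vcam1 values of -0.073, without Bailing Capsule replicate 1, to 0.37. Spp1, Gdf15, Fga, Fgb and Lcn2 had negative values throughout. Among them Lcn2 ran from -1.14 to -0.11 and Fgb from -2.17 to -0.88. No alternative was left out, apart from normexp for Havcr1 and the strict filter for Havcr1 and Lcn2, which gave no value. Same-numbered samples were not found to be paired. For changes not due to fewer arrays or more features, the cause was not tested. Signals near background limit Lcn2 and Fgg.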

Other observations

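Segment markers were measured as further lists beside the injury genes. Of 17 tested collecting duct markers 12 were positive and 5 negative, with a median of 0.32, and 1 was called, Slc26a4, which encodes pendrin, an anion exchanger of intercalated cells. The list's median was 0.61 with slide as a block. Slc26a4 had 0.57, 1.21 and 0.71 in Bailing Capsule replicates 1, 2 and 3, against -1.04, -0.48 and -1.03 in diabetic replicates 1, 2 and 3 (limma adjusted p = 0.0457, and 0.130 with slide as a block). The proton pump subunit gene Atp6v1g3 had 1.09 and the principal cell water channel gene Aqp3 -0.84, neither called (adjusted p = 0.307 and 0.322).

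All 23 proximal tubule markers were tested, with 16 negative, 7 positive and 0 called, and a median of -0.25, or 0.07 with slide as a block. The lactate transporter gene Slc5a12 had 1.50, 1.63 and 1.31 in Bailing Capsule replicates 1, 2 and 3, against 2.56, 2.79 and 2.19 in diabetic replicates 1, 2 and 3, with groups that did not overlap and an adjusted p of 0.206 (limma). Pck1, of gluconeogenesis, had -1.09 (adjusted p = 0.418). Slc7a7 went the other way, with 0.735 (limma adjusted p = 0.733). Its Bailing Capsule arrays all lay above its diabetic arrays, as for 4.58% of all features. Of 11 thick limb and distal tubule markers 9 were positive and 0 called, and Egf, a growth factor gene that falls in injured distal tubules, had 0.82 (adjusted p = 0.611). Of 10 tested fibroblast and mural cell markers 7 were negative and 0 called, with Col1a1 at -0.64 (adjusted p = 0.699).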
